A study of Sus scrofa with 28 samples.

Results

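Genes of the sarcomere, the tropomyosins and the cytoskeleton were followed in ham muscle of pigs with normal and with destructured meat. The 10 genes are DES, MYOZ1, FLNA, XIRP2, DMD, ANKRD1, ACTB, TPM1, TPM2 and TPM3. Their members were selected by annotation alone, as every probe that the platform's probe-to-gene table lists under exactly one of these symbols. This gave 38 probes, out of 509 probes listed for 211 genes and 4608 probes in all. Both groups consist of pig semimembranosus, a muscle of the ham, sampled as total RNA. The 7 normal pigs had meat with low L* (lightness) values and counted as unaffected, and the 7 destructured pigs had meat with high L* values. The labels give no breed, age, sex or treatment, and the groups were formed by this measurement of the meat. Labelled cDNA of each pig was hybridised to 1 array of spotted cDNA clones that carries every probe in a left and a right part. In the labels 1 normal and 1 destructured sample carry the same pig number (normal replicate 2 and destructured replicate 3), and whether they came from 1 animal is unknown here.

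In striated muscle, actin and myosin filaments are arranged in sarcomeres, which are joined end to end at Z-discs. Tropomyosin lies along the actin filament and, together with troponin, lets calcium control the binding of myosin. Desmin filaments tie neighbouring Z-discs to each other and to the membrane, and dystrophin links the actin cytoskeleton to the membrane and the matrix. Desmin and other anchoring proteins are known to be degraded in muscle after slaughter. The arrays measured RNA and not protein, and in a piece of muscle fewer cells of a type and less RNA per cell cannot be told apart.

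Each probe is named here by the gene the annotation lists for it and by its number, as in DES 7113. Several limits of the arrays come before the results. The deposited spot intensities were taken to log2, quantile normalized over the 28 columns (14 pigs with 2 parts each) and averaged over the left and right part, so that the pig is the replicate. In normal replicate 3 the right part of the array stood apart. Over all probes it correlated with its own left part at 0.380, while the other 13 arrays had values from 0.868 to 0.963. Over the member probes the median absolute difference between parts was 1.08 on the log2 scale in this pig and between 0.202 and 0.358 in the others. Results are therefore given with and without that part. The names are also uncertain. Pairs of probes listed for the same member gene had a mean correlation of 0.027 across pigs (119 pairs, deviations from group means), and pairs of different member genes had 0.044 (584 pairs). Without the right part these were -0.011 and -0.0096. Pairs of different member genes in the same column of the value table had a mean correlation of 0.295 (45 pairs). Without the right part it was 0.123, and 0.057 with the medians of table positions removed as well. Of 8 genes that define skeletal muscle, 6 carry a name on the array (CKM, MYH1, MYH7, MYLPF, TNNI2 and TNNT3, with 92 probes). Signal over background and the DNA per spot are not given, so neither the labelled tissue nor the presence of a transcript could be judged from the level of a spot. The number of arrays limits the precision.

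**Figure D1:**
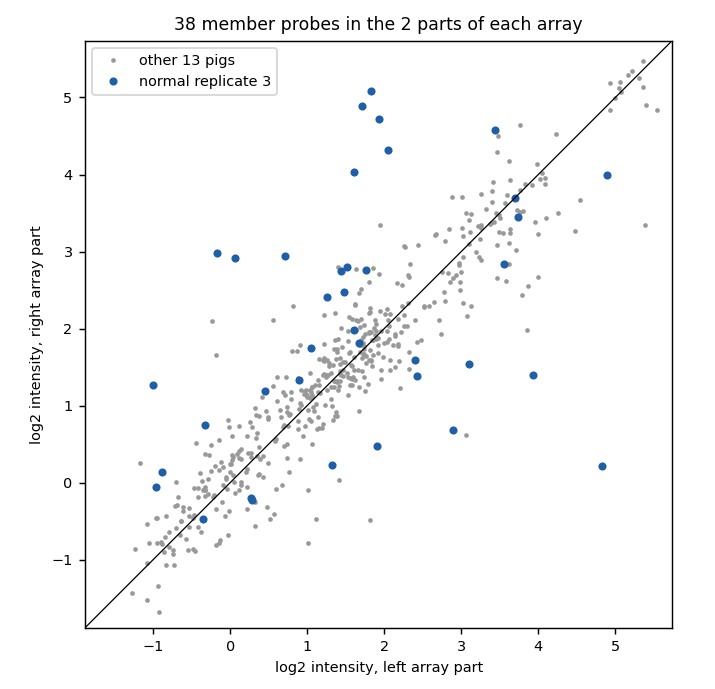
Log2 intensity of the 38 member probes in the left array part (horizontal) and the right array part (vertical) of the same array, 1 point per probe and pig, with the line of equal values. Points of normal replicate 3 scatter far from the line (median absolute difference 1.08), and most of the other 13 pigs lie near it (medians from 0.202 to 0.358). Single points of other pigs also lie far off, as ACTB 7977 in normal replicate 6 (3.07 left, 0.62 right).

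No member probe passed the test between destructured and normal muscle. The fit was made with limma over all 4608 probes with Benjamini-Hochberg adjustment, and 0 of the 38 member probes had an adjusted p under 0.05, beside 0.651% of all probes. At an unadjusted p under 0.05 stood 2 of 38 member probes, ANKRD1 6123 and TPM2 6108, beside 13.0% of all probes. An exact two-sided permutation test over all divisions of the 14 pigs, adjusted over all probes in the same way, also called 0 member probes beside 1.28% of all probes, and put the same 2 under 0.05 before adjustment, beside 14.6%. The groups overlapped in all 38 member probes, and over all probes 1.28% had groups that did not overlap. In number, 11 member probes had positive and 27 negative log2 fold changes (destructured minus normal), with a median of -0.11, against 53.7% negative and a median of -0.02 over all probes. With that right part left out, 18 were positive and 20 negative (51.3% of all probes) with a median of -0.03, and 0 passed, beside 2.93% of all probes. On the deposited scale, where the median of all probes was 0.21 and 3773 of the 4608 were positive, 28 member probes were positive and 10 negative. That share belongs beside each count of signs on this scale given below.

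A probe that did not pass is not shown to be equal in both groups. For 36 of the 38 probes the 95% interval of the log2 fold change lay within 1 of 0, that is, within a 2-fold difference either way. The exceptions were TPM2 9106 (from -1.20 to 0.02) and ACTB 7660 (from -0.22 to 1.15). Standard errors of single probes, from limma, ran from 0.11 to 0.32. Where the probes of a gene are averaged per pig, the SE comes from the group variances alone unless limma is named. Of the 6 genes with several probes, 5 had probes of both signs, and TPM2 alone had 1 sign.

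**Figure D2:**
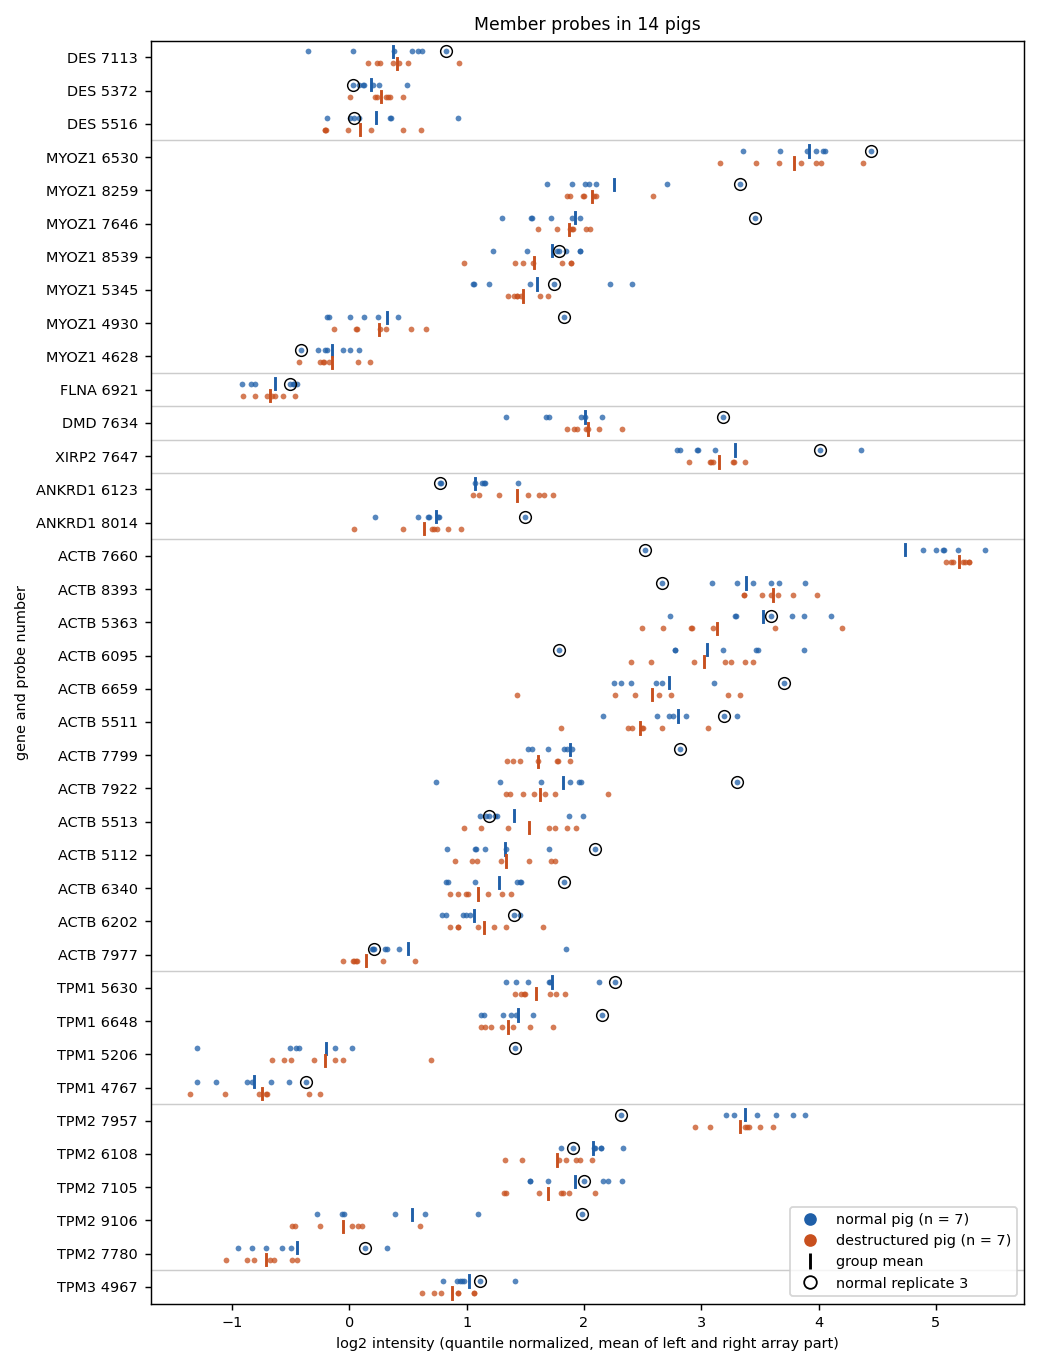
Log2 intensity of each member probe in every pig, by gene and probe number, with normal pigs in blue, destructured pigs in orange (n = 7 each), short vertical bars for group means and a ring around normal replicate 3. The groups overlap in all 38 probes, and the ringed pig is often the highest or the lowest normal one.

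**Figure D3:**
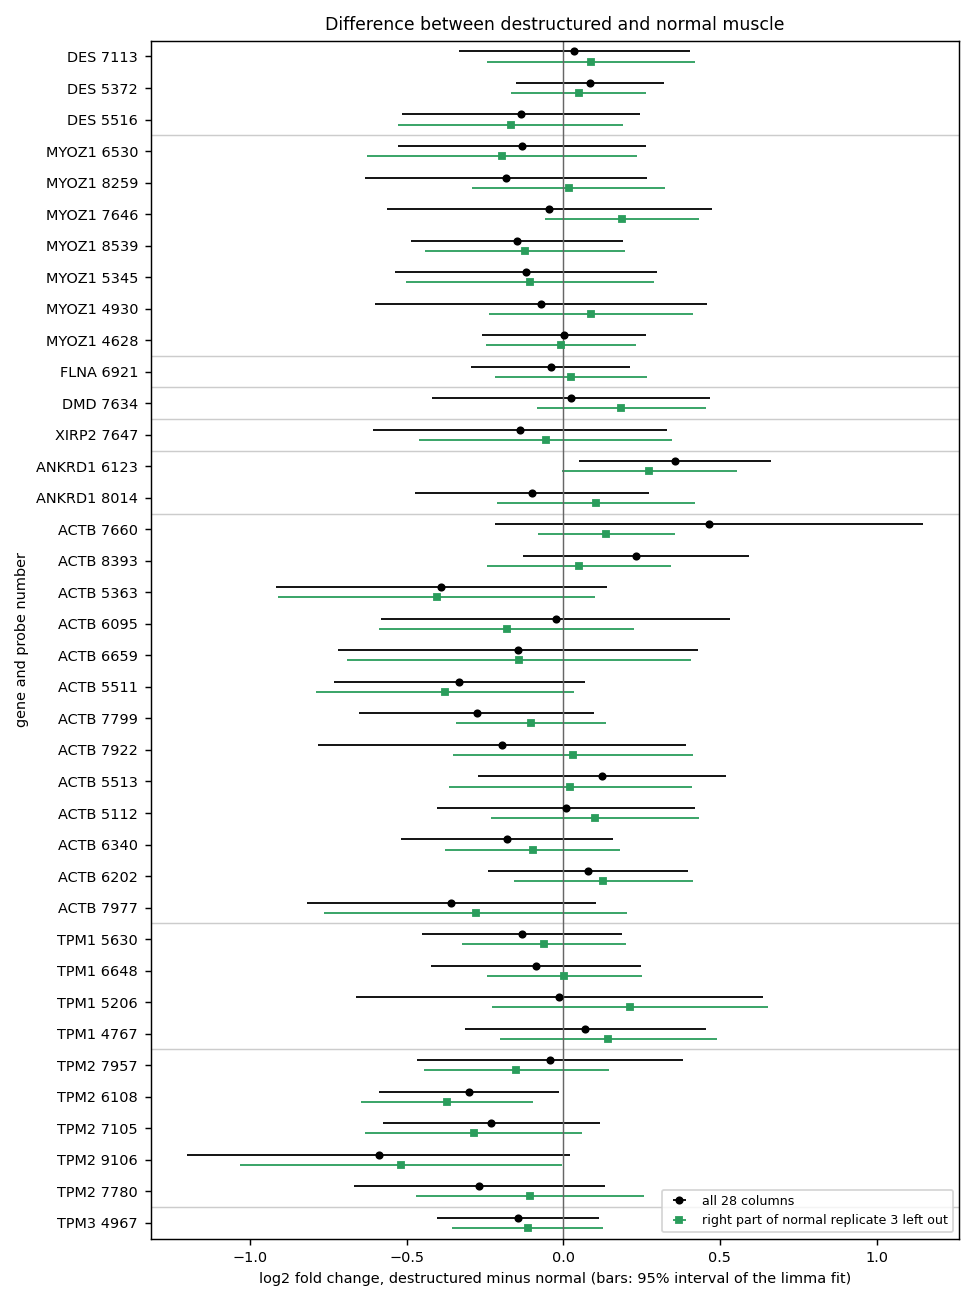
Log2 fold change (destructured minus normal) of each member probe with its 95% interval, in black from all 28 columns and in green with the right part of normal replicate 3 dropped. The intervals of ANKRD1 6123 and TPM2 6108 lie on 1 side of 0 in the black series, and neither probe passes after adjustment over all probes.

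Desmin (DES), the intermediate filament protein around the Z-disc, had 3 probes with small differences of both signs. All 3 were among the dimmest 25% of all probes. DES 7113 ranged from -0.35 through a median of 0.53 to 0.82 in normal pigs and from 0.16 through 0.37 to 0.93 in destructured pigs. The 2 ranges overlap over most of their length, and the log2 fold change was 0.035 (SE 0.18, limma adjusted p = 0.960). DES 5372 lay between 0.03 and 0.49 in normal and between 0.0049 and 0.45 in destructured pigs, a difference of 0.085 (95% interval from -0.15 to 0.32). DES 5516 had a difference of -0.13 (from -0.51 to 0.25). In this probe normal replicate 6 read -0.24 in its left and 2.09 in its right part. Averaged over the 3 probes, the normal pigs were at 0.262 ± 0.048 and the destructured pigs at 0.257 ± 0.156 (mean ± SD, n = 7 each). The probes averaged here did not rise and fall together, with a mean correlation of -0.21 within groups (3 pairs).

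Myozenin 1 (MYOZ1), a Z-disc protein of fast fibres that binds calcineurin and alpha-actinin, had 7 probes. Of these 6 had negative values, from -0.18 (MYOZ1 8259) to -0.044 (MYOZ1 7646), and the last was at 0.0010 (MYOZ1 4628); on the deposited scale 1 was negative. The smallest adjusted p was 0.743 (limma). Part of the negative signs rested on normal replicate 3. In MYOZ1 7646 the normal pigs ranged from 1.30 through a median of 1.72 to 3.46, and the destructured pigs from 1.61 through 1.90 to 2.05. The highest normal value belonged to normal replicate 3, whose left part read 1.83 and whose right part read 5.08. When that right part was dropped, the normal SD went from 0.71 to 0.23 and the difference from -0.044 to 0.19 (SE 0.12, limma adjusted p = 0.476), and 4 of the 7 probes were negative. MYOZ1 6530, the brightest, was at 3.92 ± 0.339 in the normal and at 3.79 ± 0.399 in the destructured pigs (mean ± SD, n = 7 each).

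Filamin A (FLNA), which cross-links actin filaments, had 1 probe. This probe was among the dimmest 25% of all probes. FLNA 6921 ranged from -0.91 through a median of -0.50 to -0.44 in normal and from -0.90 through -0.66 to -0.46 in destructured pigs. The ranges are nearly the same, and the difference was -0.040 (SE 0.12, 95% interval from -0.29 to 0.21). Without the right part of normal replicate 3 it was 0.025 (SE 0.12), and 0.061 with position medians removed as well. That pig went from -0.50 to -0.94, the lowest normal value, when its right part was dropped. The SD of FLNA 6921 between pigs, 0.178, was among the smaller ones, against a median of 0.371 over the member probes.

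XIRP2, an actin-binding protein of muscle attachment sites, also had 1 probe. In normal pigs XIRP2 7647 ranged from 2.79 through a median of 2.97 to 4.36, and in destructured pigs from 2.89 through 3.10 to 3.37. Normal replicates 1 and 3 lay above all destructured pigs at 4.36 and 4.01, and the other 5 normal pigs lay at or below 3.11. Normal replicate 1 read 5.38 in its left and 3.35 in its right part. The difference was -0.14 (SE 0.22, limma adjusted p = 0.841), and -0.057 (SE 0.19) without the right part. With normal replicate 1 left out it was 0.042 (SE 0.18).

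Dystrophin (DMD) had 1 probe, DMD 7634. It ranged from 1.34 through a median of 1.97 to 3.18 in normal pigs and from 1.85 through 2.02 to 2.32 in destructured pigs. The value of 3.18 was that of normal replicate 3, with 2.05 in the left and 4.32 in the right part. With that part the difference was 0.025 (SE 0.21), and without it 0.19 (SE 0.13, 95% interval from -0.08 to 0.45, limma adjusted p = 0.524).

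ANKRD1 encodes a protein of the titin I-band and the nucleus that is induced in stretched or damaged muscle. Its 2 probes had values of opposite sign. ANKRD1 6123 ranged from 0.77 through a median of 1.13 to 1.44 in normal pigs and from 1.06 through 1.53 to 1.74 in destructured pigs. Destructured replicates 1, 2, 5 and 7 were above every normal pig, and the other 3 lay among the normal pigs. The log2 fold change was 0.36 (SE 0.15, 95% interval from 0.05 to 0.66), a 1.28-fold higher mean in destructured muscle that did not pass (unadjusted p = 0.0254, limma adjusted p = 0.289). Of the 7 destructured pigs 6 lay above the normal mean. It was 0.28 (SE 0.13, adjusted p = 0.323) without the right part and 0.14 (SE 0.11, adjusted p = 0.685) with the medians of table positions removed as well. ANKRD1 8014 was at -0.10 (SE 0.18), and at 0.10 without the right part.

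Beta-actin (ACTB), the cytoskeletal actin that many assays take as a reference gene, had the most probes, 13. Of these 5 had positive and 8 negative values, from -0.39 (ACTB 5363) to 0.47 (ACTB 7660), and on the deposited scale 8 were positive and 5 negative. The smallest adjusted p was 0.477 (limma, ACTB 5511). Averaged over the 13 probes, the normal pigs were at 2.27 ± 0.106 and the destructured pigs at 2.19 ± 0.116 (mean ± SD, n = 7 each). The difference of -0.076 (SE 0.059, and 0.10 when limma was fitted to the averaged probes) was smaller than the SD of either group. Pairs of these probes had a mean correlation of 0.0027 within groups (78 pairs).

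ACTB 7660 had the largest positive difference of the 38 probes. Normal pigs ranged from 2.52 through a median of 5.06 to 5.42 and destructured pigs from 5.08 through 5.23 to 5.28. The value of 2.52 was that of normal replicate 3, with 4.82 in its left and 0.21 in its right part, and the next normal pig was at 4.89. The difference went from 0.47 (SE 0.32) to 0.14 (SE 0.10, limma adjusted p = 0.571) without the right part. ACTB 5511 ranged from 2.16 through 2.76 to 3.30 in normal and from 1.80 through 2.50 to 3.06 in destructured pigs. Of the 7 destructured pigs 6 lay below the normal mean, with a difference of -0.33 (SE 0.19, adjusted p = 0.477), -0.38 (SE 0.20, adjusted p = 0.370) without the right part, and -0.57 (adjusted p = 0.177) with position medians removed too. In ACTB 7977 normal replicate 6 stood at 1.84, with 3.07 in its left and 0.62 in its right part, and the next normal pig at 0.42. The difference was -0.36 (SE 0.22) with normal replicate 6 and -0.13 (SE 0.12, limma adjusted p = 0.679) without it.

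TPM1, the alpha tropomyosin that is abundant in fast and cardiac muscle, had 4 probes. Of these 3 were negative, from -0.13 (TPM1 5630) to -0.013 (TPM1 5206), and TPM1 4767 was at 0.071; with median centring 2 were negative and on the deposited scale 0. In TPM1 5206 normal pigs ranged from -1.30 through -0.43 to 1.41 and destructured pigs from -0.66 through -0.30 to 0.70. The highest normal value was again that of normal replicate 3. Without the right part 1 of the 4 was negative, and the mean over the 4 probes went from -0.041 (SE 0.16) to 0.075 (SE 0.081). None had an adjusted p under 0.674 in that fit (limma).

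TPM3, the slow tropomyosin, had 1 probe. TPM3 4967 ranged from 0.80 through a median of 0.96 to 1.41 in normal and from 0.62 through 0.93 to 1.06 in destructured pigs, which overlap. The difference was -0.15 (SE 0.12, 95% interval from -0.40 to 0.11, limma adjusted p = 0.646), and 0.12 on the deposited scale.

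TPM2, the beta tropomyosin, had 5 probes. All 5 were negative in the main scaling, with median centring, from the left part alone and with the right part of normal replicate 3 dropped. From the right part alone 3 of 5 were negative, as on the deposited scale, where 3773 of all 4608 probes were positive. TPM2 9106 and TPM2 7780 were among the dimmest 25% of all probes. Without that 25% the other 3 were negative, with a mean of -0.19. The largest difference in the main scaling was that of TPM2 9106, which ranged from -0.27 through a median of 0.39 to 1.98 in normal pigs and from -0.49 through 0.02 to 0.61 in destructured pigs. Normal replicates 1, 2 and 3 were higher than every destructured pig and the other 4 lay among them. Its difference was -0.59 (SE 0.29, limma adjusted p = 0.403), and -0.52 (SE 0.25, adjusted p = 0.315) without the right part. It was -0.35 (SE 0.22, adjusted p = 0.485) with the pig normal replicate 3 left out, -0.23 (SE 0.30) from the left part alone and -0.96 (SE 0.39) from the right part alone.

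TPM2 6108 had the smallest unadjusted p of the 5. It ranged from 1.80 through a median of 2.09 to 2.33 in normal pigs and from 1.33 through 1.85 to 2.07 in destructured pigs. All 7 destructured pigs lay below the normal mean of 2.07, and normal replicates 1 and 3 lay inside the destructured range. Normal replicate 3 read 2.43 in its left and 1.39 in its right part. With the right part dropped it was the highest normal pig, at 2.44. The difference was -0.30 (SE 0.14, unadjusted p = 0.0405, limma adjusted p = 0.355). The 2 array parts did not give the same value, with -0.60 (SE 0.15, adjusted p = 0.0952) from the left part alone and 0.011 (SE 0.23, adjusted p = 0.992) from the right part alone. With that right part of normal replicate 3 dropped it was -0.37 (SE 0.13, adjusted p = 0.155).

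The other 3 probes were TPM2 7780 at -0.27 (SE 0.19), TPM2 7105 at -0.23 (SE 0.16) and TPM2 7957, the brightest, at -0.042 (SE 0.20). Averaged over the 5 probes, the level ranged from 1.29 through a median of 1.48 to 1.67 in normal and from 1.04 through 1.21 to 1.35 in destructured pigs. All 7 destructured pigs were below the normal mean of 1.49, and normal replicates 6 and 7 lay within the destructured range. The difference of the means over the 5 probes was -0.29 (SE 0.073, from the group variances alone). When the probes of each named gene were averaged before the fit, limma over 4310 features gave -0.29 (SE 0.11, unadjusted p = 0.0168, adjusted p = 0.232), beside 0.696% of features called. Of the 10 member genes 0 passed in that fit, 8 were negative, and the next smallest adjusted p was 0.645 (TPM3).

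**Figure D4:**
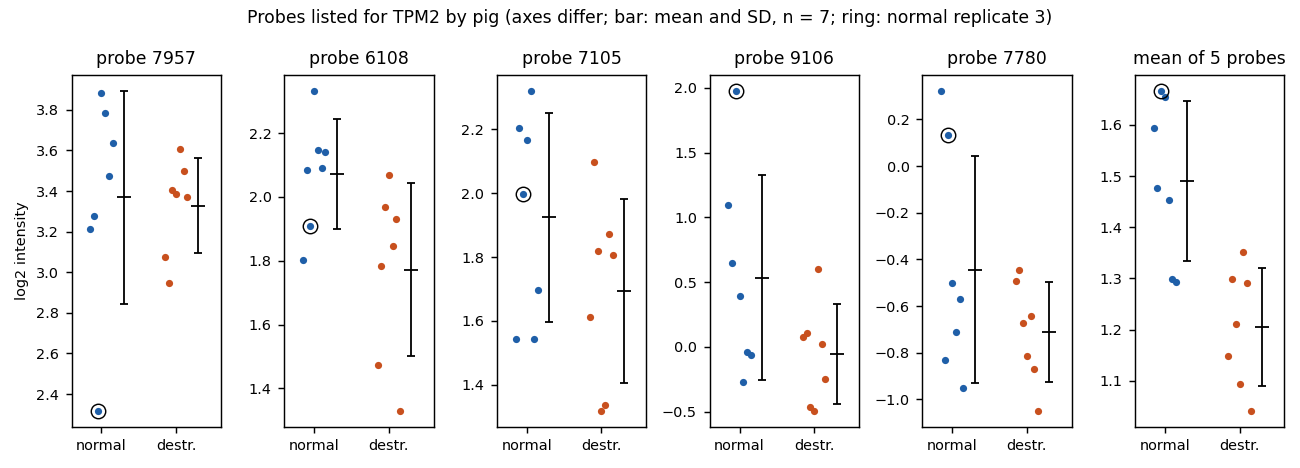
Log2 intensity of the 5 probes listed for TPM2 and of their mean, by pig, with mean and SD to the right of each group (n = 7) and a ring around normal replicate 3; the vertical axes differ and do not start at 0. In the mean of the 5 probes all destructured pigs lie below the normal mean of 1.49, while 2 normal pigs lie within the destructured range. Pairs of the probes had a mean correlation of -0.11 within groups. From the right part alone 2 of the 5 probes are positive, as on the deposited scale, where 3773 of all 4608 probes are positive.

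Over all probes the difference moved with the place in the value table, and over the members in part. Positions repeat every 72 rows in 12 columns, and the mean log2 fold change of all probes of a column ran from -0.19 in column 11 to 0.19 in column 7. TPM2 7957 and 7105 lie in column 1 (mean of all its probes -0.15), TPM2 6108 in column 12 (-0.16), TPM2 9106 in column 10 (-0.14) and TPM2 7780 in column 4 (0.13). With the median of each position removed, 4 of the 5 TPM2 probes were negative and their mean was -0.11. With the right part left out as well, 4 were negative and the mean over the probes was -0.13 (SE 0.063 from the group variances, not limma). The smallest adjusted p of the 5 was then 0.571 (limma). In columns 2 to 7, where 35.7% of all probes were negative, 11 of 17 member probes were negative, with a median of -0.13 against 0.081 for all probes there. In the other columns, where 71.7% of all probes were negative, 16 of 21 member probes were negative, with a median of -0.089 against -0.11. The member medians of the 2 sets of columns thus did not follow the order of all probes. Member means by single column did so in part. Those means were -0.20, -0.14, -0.14 and -0.13 in columns 11, 10, 1 and 12, beside -0.19, -0.14, -0.15 and -0.16 for all probes. In columns 4, 5 and 9 they were 0.0055, 0.079 and -0.12, beside 0.13, 0.064 and -0.038. Columns 2, 3, 7 and 8 had opposite signs, with -0.096, -0.045, -0.15 and -0.016 beside 0.046, 0.098, 0.19 and 0.034. Whether position sets the member differences was not tested beyond these values.

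**Figure D5:**
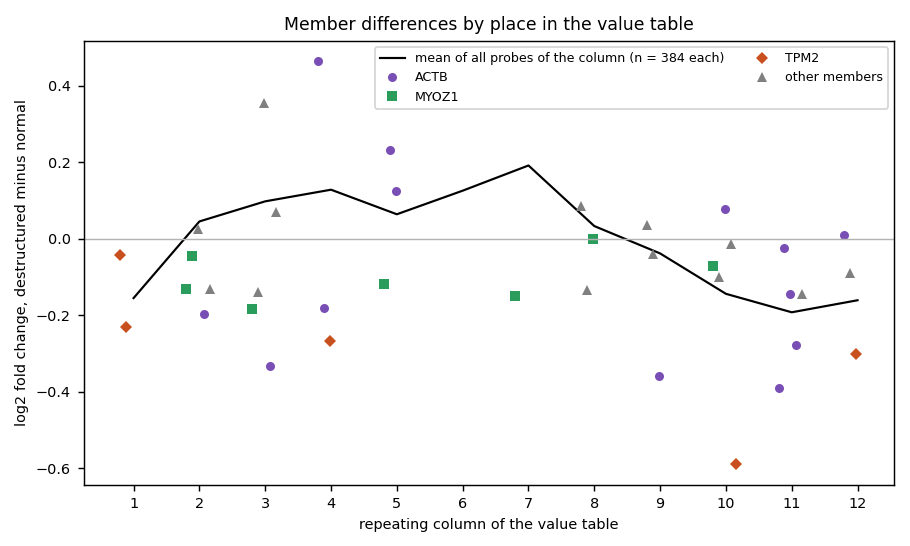
Log2 fold change (destructured minus normal) of the member probes against the repeating column of the value table, with the mean of all probes of each column (384 each) as a line. TPM2 diamonds lie mostly in columns 1, 10 and 12, where the line is between -0.16 and -0.14. On the deposited scale 2 of the 5 have positive values, beside 3773 of all 4608 probes.

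The median spread between pigs was larger for these probes than for all probes. The median SD within groups was 0.371 over the 38 probes and 0.317 over all probes, and without the right part 0.300 and 0.265. Normal replicate 3 was the highest normal pig in 17 of the 38 probes and the lowest in 7. Among the destructured pigs, replicate 2 was highest in 12 probes and replicate 3 in 9.

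Other genes of the same structures were few on the array. Of 81 listed partners in the sarcomere and cytoskeleton 6 were measured, with 13 probes: ACTG1, the second cytoplasmic actin, CFL1 (cofilin, which severs actin), FHL1 and FHL3, TPM4 and TUBA1B. None passed, 4 were positive and 9 negative, with a median of -0.10, against -0.02 over all probes. The smallest p were those of CFL1 5422 at -0.33 (SE 0.22, limma adjusted p = 0.530), ACTG1 7490 at -0.27 (SE 0.21) and CFL1 7136 at -0.21 (SE 0.18). TPM4 7432, of the remaining tropomyosin gene, was at -0.099 (SE 0.26). The troponins, which sit on tropomyosin, had 5 of 6 genes measured with 54 probes, 22 positive and 32 negative, and none passed. Their smallest adjusted p were those of TNNI2 7658 (0.45, SE 0.13, adjusted p = 0.0967), TNNT3 8542 (-0.42, SE 0.12, adjusted p = 0.104) and TNNT1 5964 (-0.42, SE 0.15, adjusted p = 0.225). Each of these genes had probes of both signs. Of the opposite sign were TNNI2 8806 (-0.62, SE 0.26), TNNT3 7659 (0.32, SE 0.15) and TNNT1 4624 (0.11, SE 0.15), among others. Of the troponin probes TNNT3 8542 passed without the right part (-0.44, adjusted p = 0.0320), but not with position medians removed as well (-0.29, adjusted p = 0.350).

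Markers of fibre types and of other cells bear on ACTB and FLNA, which non-muscle cells also express, and on the tropomyosins. The 17 probes of 5 slow fibre genes had a median log2 fold change of 0.0056, with summed intensities from 67.0 to 98.7 in normal and from 74.0 to 83.9 in destructured pigs. The 91 probes of 7 fast fibre genes had a median of -0.067, with sums from 402 to 505 and from 451 to 508. Of the fibroblast markers FN1, MGP and MMP2 were measured, with 3 of 3 negative (2 of 3 without the right part) and sums from 14.4 to 31.5 and from 11.9 to 19.9. The adipocyte markers FABP4 and PPARG were positive with both probes (median 0.17, and 0.089 without the right part), with sums from 7.98 to 14.9 and from 13.3 to 15.5. With position medians removed as well, 1 of these 2 probes was negative and the median was -0.038. The blood and immune markers CD74 and CXCL12 had 1 positive and 2 negative probes, with sums from 6.94 to 11.8 and from 6.95 to 11.0. PECAM1 stood for endothelium (from 0.694 to 1.08 and from 0.818 to 1.14), and of the 6 smooth muscle markers 0 carried a name. None of these probes passed (apart from the fast fibre probe TNNT3 8542 in the setting named above), and their part in the member values was not tested. All sums include the right part of normal replicate 3, and no sums without it are given. A bright probe weighs more in a sum than a dim one. Over all probes the sums ran from 20295 to 25779 in normal and from 25466 to 25859 in destructured pigs.

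For the brightest probe of each member, the most alike probe of another named gene was found among 471 probes. The measure was Pearson's r over the 14 pigs. All probes were read from the same arrays and may share a table column, so r is given as a description. It is given here first over all pigs and then without normal replicate 3. TPM2 7957 was most like MYLPF 8389, in the same table column (r = 0.965, and 0.919). XIRP2 7647 was most like CKM 8680 (0.891, and 0.861), ANKRD1 6123 like ATP5O 5359 (0.841, and 0.821), TPM3 4967 like RLN2 7431 (0.829, and 0.844) and TPM1 5630 like MYLPF 5621 (0.819, and 0.675). ACTB 7660 was most like PSP-I 7863, listed for a seminal plasma protein, at 0.970, which dropped to 0.565 without normal replicate 3. DMD 7634 and ENO3 5187 went from 0.905 to 0.718. DES 7113 was most like MYLPF 5207 (0.756), MYOZ1 6530 like CFL1 5422 (0.741) and FLNA 6921 like MYLPF 6119 (0.681). With position medians removed and the right part left out, r was lower for all 10 pairs, from 0.790 for TPM2 down to 0.497 for TPM3, 0.481 for ANKRD1, 0.365 for FLNA and 0.265 for DMD.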

How the data were processed

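The authors deposited linear spot intensities in 28 columns from 14 pigs, with 0 missing values. Per the labels' protocols and the series' design text, radioactively labelled cDNA was hybridised to cDNA arrays, imaged at 25 micrometres and quantified with BZscan. An earlier hybridisation with an oligonucleotide common to all clones checked the DNA in each spot. Whether the values were corrected for it, for background or for scale is unknown here, so the main fit compares no probe's level with that of another. Levels of different probes do enter the choice of a gene's brightest probe, the setting without the dimmest 25% and the summed marker intensities. Probes of the members were found through the platform's probe-to-gene table (10 of 10 member genes matched the RefSeq gene table). Values were taken to log2, quantile normalized, averaged over the 2 parts per pig and compared with limma 3.58.1 (lmFit, eBayes) in R 4.3.3, with group as the only term and no filter; p-values were adjusted by Benjamini and Hochberg's method across the 4608 probes, with a threshold of 0.05. The fit was tested on simulated data. The alternatives cover scaling, dim probes, array parts, position, single pigs, variance model, offset, test and averaging of probes. The 2 numbers after "rep" in the labels are array parts. The members, lists and alternatives, including the exclusion of 1 array part, were chosen with earlier results of these data known. All member genes, the 3 partner probes with the smallest p and the most alike probe of each member were named; the troponin probes and TPM4 7432 were named after their values were seen. Figures were drawn with matplotlib 3.10.9. The limma p-values set each group difference against the spread between these pigs within groups. Nothing says how the pigs were reared or sampled, so which other pigs the p-values speak for is unknown here.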

Additional observations from a re-analysis of the deposited data

Results flagged for a closer look

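Each member probe and the correlation of array parts was searched, group by group (n = 7), for a pig separated from its nearest neighbour by more than Dixon's 95% critical share of the whole range. There were 10 such cases in 78 searches; about 1 in 20 is the rate by chance. Of the 10, 8 concern normal replicate 3. Its left and right array parts correlated at 0.380, and the nearest normal pig had 0.868. Among normal pigs it had the highest log2 value of MYOZ1 7646 (3.46, next 1.96), MYOZ1 4930 (1.83, next 0.41), ANKRD1 8014 (1.49, next 0.76), ACTB 7799 (2.82, next 1.90) and TPM1 6648 (2.16, next 1.57). It had the lowest value of ACTB 7660 (2.52, next 4.89) and TPM2 7957 (2.32, next 3.21). In ACTB 7977 normal replicate 6 was highest (1.84, next 0.42), and in MYOZ1 8259 destructured replicate 7 was the highest destructured pig (2.59, next 2.10).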

How the results depend on the processing

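No member probe passed in any of the 28 alternatives run, and 1015 single probe values in 27 of them held 0 past the threshold. No direction was called for any member, so changes of sign are given as counts: 890 of the 1015 values kept their sign. The smallest adjusted p of a member in any setting was 0.0952 (TPM2 6108, left part alone). Only the count over all probes changed. It was 30 as reported (limma), 6 with median centring, 2 on the deposited scale, 49 without the dimmest 25% of probes, 13 from the left and 1 from the right part alone, 5 with position medians removed, 135 without the right part of normal replicate 3, 17 with both changes, 3 without the samples of the shared pig number, 6 with trend and robust variances, 53 with an offset of 1 and 59 by the exact permutation test. Fits with a single pig left out gave from 2 to 84. With the array part as a replicate block and the pig as a random block it was 107, with 0 member probes; the numbers after "rep" in the labels mark the parts and pair no samples between groups, and the pig number that 1 normal and 1 destructured sample share links those samples alone. The cause of these changes was not tested. By more than 1 SD between pigs moved TPM2 6108 in either part alone and, with DES 5372, MYOZ1 4628, FLNA 6921 and TPM3 4967, on the deposited scale, where the median of all probes is 0.21. With the brightest probe in place of the mean of a gene's probes, ACTB went from -0.076 to 0.47, ANKRD1 from 0.13 to 0.36 and TPM2 from -0.29 to -0.042, while DES, MYOZ1 and TPM1 moved by less than their SD (the other 4 genes have 1 probe). The TPM2 mean ran from -0.32 to -0.25 with 1 pig left out, with 4 or 5 of its 5 probes negative. Leaving out the dimmest 25% of probes kept 27 of the 38 member probes, and dropped every DES and FLNA probe. Signal over background is not given, which limits what the dim probes can show.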
